A study of Sus scrofa with 6 samples.

Results

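The family of miR-130, miR-301 and miR-454 was measured in small extracellular vesicles (s-EVs) from porcine follicular fluid. The 3 members ssc-miR-130a, ssc-miR-301 and ssc-miR-454 were taken by name from 453 porcine miRNAs. Their relative ssc-miR-130b-3p was described beside them and not counted among the 3. The fluid came from follicles labelled as 2 to 6 mm, a range whose lower limit the study's methods give otherwise, in ovaries of prepubertal Landrace × Large White gilts, and the labels name no treatment in either group. The oocyte of each follicle was tested with lissamine green B, which colours oocytes of poor viability, and fluid was pooled by the stain, so that the HQ group held fluid of unstained (high quality) oocytes and the LQ group fluid of stained (low quality) oocytes. Each group had 3 biological replicates of 0.5 mL of fluid, and each replicate was a pool over follicles, not an animal. Levels are CPM, read counts scaled to a common library total, adjusted by the trimmed mean of M-values (TMM) and deposited by the authors.

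MicroRNAs guide a repressor complex to messenger RNAs that pair with the seed, bases 2 to 8 of the mature strand, so miRNAs that share a seed can repress overlapping targets. In human and mouse cells the family is known for repressing PPARG, a fat cell regulator, and for acting within the TGF-beta pathway, through which the oocyte and the granulosa cells signal to each other in the follicle. In human, miR-301a and miR-454 lie together in an intron of SKA2, while miR-130a has a locus of its own. In cattle, miR-130b has been studied in granulosa and cumulus cells.

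The mature sequences below show what joins miR-130a to miR-130b-3p, which has the same seed but was not among the members taken here. They were read from the RefSeq annotation of Sscrofa11.1, the build to which the authors mapped their reads, 5′ to 3′ with the seed in capitals. Both ssc-miR-301 and ssc-miR-454 were among the 98 miRNAs not matched to the annotation by name, so that no sequence is printed for them and the searches of seeds did not cover them.
ssc-miR-130a: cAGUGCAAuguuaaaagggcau
ssc-miR-130b-3p: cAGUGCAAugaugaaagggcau
The seed AGUGCAA was found in 2 of the 355 miRNAs matched to the annotation (0.563%), these being miR-130a and miR-130b-3p. Over 22 bases the mature strands shared 20 positions, with the differences U11A and A13G from miR-130a to miR-130b-3p, counted from 1 at the 5′ end. Both differences lie 3′ of the seed.

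The hairpins are shown because both mature strands come from the 3′ arm, here in capitals, of loci on different chromosomes.
ssc-miR-130a hairpin: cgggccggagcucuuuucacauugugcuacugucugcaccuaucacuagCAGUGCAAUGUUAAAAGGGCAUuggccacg
ssc-miR-130b hairpin: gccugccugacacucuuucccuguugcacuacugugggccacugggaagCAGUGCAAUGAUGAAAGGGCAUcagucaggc
MIR130A lies on the minus strand at chr2:13296695-13296773, overlaps no other annotated gene, and is 2450 bases from the nearest coding gene, YPEL4. MIR130B lies on the minus strand at chr14:50245041-50245120, within LOC100155534 on the same strand and outside its exons, and is therefore intronic. In both hairpins the mature strand takes up bases 50 to 71.

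Library depth could be read from the table, since every value was a whole multiple of the library's smallest step, within 6.66e-05 of a step. If a step is 1 read, the 6 libraries held 898530 (LQ replicate 1) to 3159116 (LQ replicate 3) miRNA reads, and a count of 3 reads was worth 1.02 to 3.68 CPM. The summed TMM-adjusted CPM ranged from 915120 to 948868 in the HQ libraries and from 1033599 to 1103611 in the LQ libraries. Every LQ sum was thus above every HQ sum. All 3 members were detected in every library, the least by 82 reads (miR-454 in LQ replicate 1), so that detection limited none of them. Intervals quoted for single libraries cover counting error only.

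In short, miR-301 was the member that differed most between the groups, with 2.21-fold more CPM in LQ than in HQ s-EVs. MiR-130a was 1.49-fold higher in LQ and only just passed the test, and miR-454 did not pass it. These CPM are TMM-adjusted shares of reads, so that a difference in level between miRNAs is not a difference in molecules. In bulk vesicle RNA, fewer vesicles of a kind and fewer copies per vesicle cannot be told apart.

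MiR-130a was the abundant member, ranking 27 to 33 among all miRNAs in the HQ libraries and 26 to 27 in the LQ libraries. In human endothelial cells it is known to repress the growth-restraining homeobox genes GAX and HOXA5. It stood at 3642, 3590 and 5786 CPM over replicates 1 to 3 of HQ, and at 5857, 6697 and 6789 CPM over those of LQ. In TMM-adjusted CPM all LQ libraries were above all HQ libraries, but the lowest LQ library exceeded HQ replicate 3 by only 1.23%. As a percentage of the library's summed CPM the groups overlapped, with 0.617% in HQ replicate 3 and 0.531% in LQ replicate 1. HQ replicates 1 and 2 were close to each other, and HQ replicate 3 lay nearer to the LQ libraries than to them.

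The mean of miR-130a was 4340 ± 1253 CPM (SD, n = 3) across the HQ libraries and 6448 ± 513 CPM (SD, n = 3) across the LQ libraries. On the log2(CPM + 0.5) scale the difference, HQ minus LQ, was -0.61 (SE 0.22, 95% interval -1.07 to -0.14), with an adjusted p of 0.0493 by limma over 309 miRNAs. The call was thus at the edge of the threshold of 0.05. It was lost without HQ replicate 1 (-0.50, adjusted p 0.173), HQ replicate 2 (-0.49, adjusted p 0.189), LQ replicate 2 (-0.58, adjusted p 0.158) or LQ replicate 3 (-0.57, adjusted p 0.110). It was also lost when the libraries were scaled to equal sums (-0.41, adjusted p 0.173) and after a correction for GC content (-0.32, adjusted p 0.284). Direction did not change in any of these fits.

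**Figure D1:**
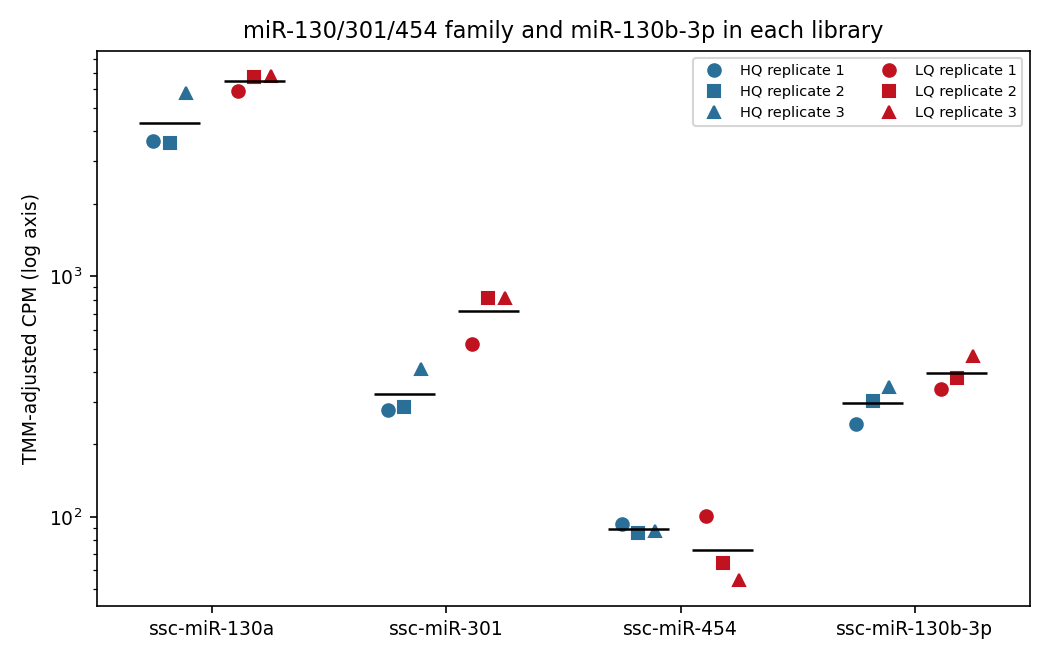
TMM-adjusted CPM on a log axis of the 3 family members and of the seed relative miR-130b-3p, in 3 HQ (blue) and 3 LQ (red) libraries, with the marker shape giving the replicate and the black line the group mean. For miR-130a and miR-301 every LQ point lies above every HQ point, while the groups overlap for miR-454 and miR-130b-3p.

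MiR-301, known in human cells for raising NF-kB signalling by repressing its inhibitor NKRF, was more than an order of magnitude rarer than miR-130a in the HQ libraries. It stood at 279, 286 and 410 CPM over replicates 1 to 3 of HQ, and at 524, 814 and 814 CPM over those of LQ. The groups did not overlap, and the lowest LQ library, replicate 1, was 28.0% above the highest HQ library, replicate 3. As for miR-130a, HQ replicate 3 was the HQ library nearest to LQ and LQ replicate 1 the LQ library nearest to HQ.

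The mean of miR-301 was 325 ± 73.8 CPM (SD, n = 3) across the HQ libraries and 717 ± 167 CPM (SD, n = 3) across the LQ libraries. The log2 difference was -1.14 (SE 0.26, 95% interval -1.67 to -0.60), with an adjusted p of 0.00365 by limma. MiR-301 was therefore the family member that met the study's rule for a differing miRNA, a fold change of at least 2 with an adjusted p under 0.05 and more than 5 CPM in the higher group. Leaving out any single library kept the adjusted p between 0.00103 and 0.0443. With libraries scaled to equal sums the difference was -0.94 (adjusted p 0.0132), which is under a fold of 2, and without a mean trend in limma's variance prior the adjusted p was 0.0507.

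MiR-454 was the rarest member and showed a different order of libraries. It stood at 93.4, 85.8 and 87.3 CPM over replicates 1 to 3 of HQ, and at 101, 64.4 and 54.5 CPM over those of LQ. LQ replicate 1 was the highest of the 6 libraries and LQ replicates 2 and 3 were the lowest, so that the groups overlapped. LQ replicate 1 also had the fewest reads, with 82 reads of miR-454 and a 95% Poisson interval of 80.1 to 125 CPM. That interval did not reach those of LQ replicate 2 (54.4 to 75.7 CPM) and LQ replicate 3 (46.4 to 63.6 CPM).

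The mean of miR-454 was 88.9 ± 4.0 CPM (SD, n = 3) across the HQ libraries and 73.2 ± 24.3 CPM (SD, n = 3) across the LQ libraries. The log2 difference was 0.33 (SE 0.28, 95% interval -0.25 to 0.91), with an adjusted p of 0.399 by limma, so that a difference in either direction was within the interval. Without LQ replicate 1 it was 0.58 (adjusted p 0.109), and without LQ replicate 3 it was 0.14 (adjusted p 0.794).

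Read against all miRNAs tested, 2 of the 3 members were higher in LQ at an adjusted p under 0.05, where 14.9% of the 309 miRNAs were, and 26.5% passed in either direction. By the study's full rule 1 of 3 was higher in LQ, against 7.44% of all. In TMM-adjusted CPM all LQ libraries exceeded all HQ libraries for 2 of 3 members, against 22.7% of all. The median log2 difference was -0.61 over the 3 members and 0.08 over all 309 miRNAs, with quartiles of -0.55 and 0.52. With 3 members these counts describe the members taken and test nothing about the family.

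**Figure D2:**
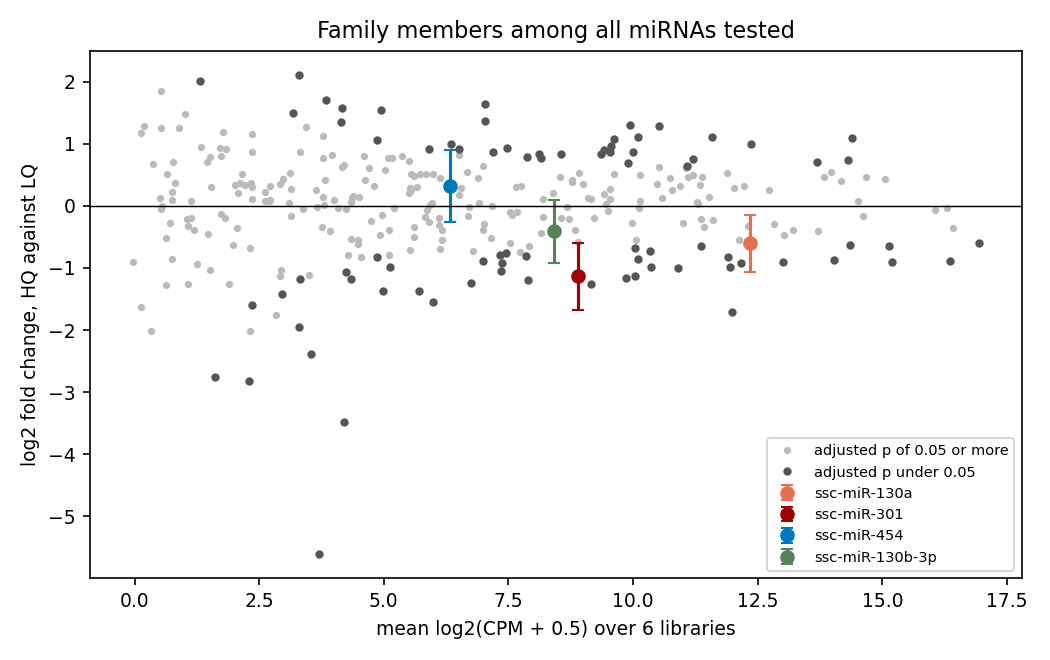
Log2 fold change (HQ against LQ, below 0 where LQ was higher) against the mean log2(CPM + 0.5) over the 6 libraries, for the 309 miRNAs tested (grey, darker where the adjusted p was under 0.05). The family members and miR-130b-3p are coloured, with 95% intervals, and the intervals of miR-130a and miR-301 lie below 0 while those of miR-454 and miR-130b-3p include it.

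The spread between replicates also differed between members. The coefficient of variation of miR-130a was 28.9% over the HQ libraries and 7.96% over the LQ libraries, where counting error alone gave 1.08% and 0.989%. That of miR-301 was alike in the groups, at 22.7% in HQ and 23.3% in LQ. For miR-454 it was 4.51% in HQ, under the 7.46% that counting error alone gives, and 33.2% in LQ against 9.07%. Over miRNAs above 5 CPM the median was 21.1% in HQ and 18.6% in LQ, and miR-454 had a lower value than all but 6 of 250 miRNAs in HQ but a higher value than 200 of 254 in LQ.

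The members were next compared within each library, where the scaling between libraries cancels. MiR-130a made up 90.6% to 92.1% of the summed CPM of the 3 members in HQ and 88.4% to 90.4% in LQ. MiR-301 made up 6.52% to 7.21% in HQ and 8.09% to 10.7% in LQ, and miR-454 made up 1.39% to 2.33% in HQ and 0.712% to 1.55% in LQ. Together the 3 members were a small part of the cargo, at 0.423% to 0.670% of a library's CPM in HQ and 0.587% to 0.733% in LQ.

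The ratio of miR-130a to miR-301 was 13.1, 12.6 and 14.1 over replicates 1 to 3 of HQ, and 11.2, 8.23 and 8.34 over those of LQ. All HQ libraries were above all LQ libraries, so that miR-301 was higher relative to miR-130a in each LQ library. The log2 ratio of miR-301 to miR-130a was lower in HQ by 1.45-fold (log2 difference -0.53). A two-sided exact permutation test gave p = 0.1, or 0.15 adjusted over the 3 pairs of members, and 0.1 is the smallest p that 3 libraries against 3 allow.

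The ratio of miR-301 to miR-454 was 2.98, 3.33 and 4.69 over replicates 1 to 3 of HQ, and 5.21, 12.6 and 14.9 over those of LQ. The groups again did not overlap, with LQ replicate 1 close to HQ replicate 3. The log2 ratio of miR-454 to miR-301 was higher in HQ by 2.76-fold (log2 difference 1.46, exact permutation p = 0.1, adjusted 0.15). Against miR-130a, miR-454 had a log2 difference of 0.93 (1.91-fold, exact permutation p = 0.2, adjusted 0.2), with overlapping groups. None of the 3 ratios could pass 0.05 in this design.

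**Figure D3:**
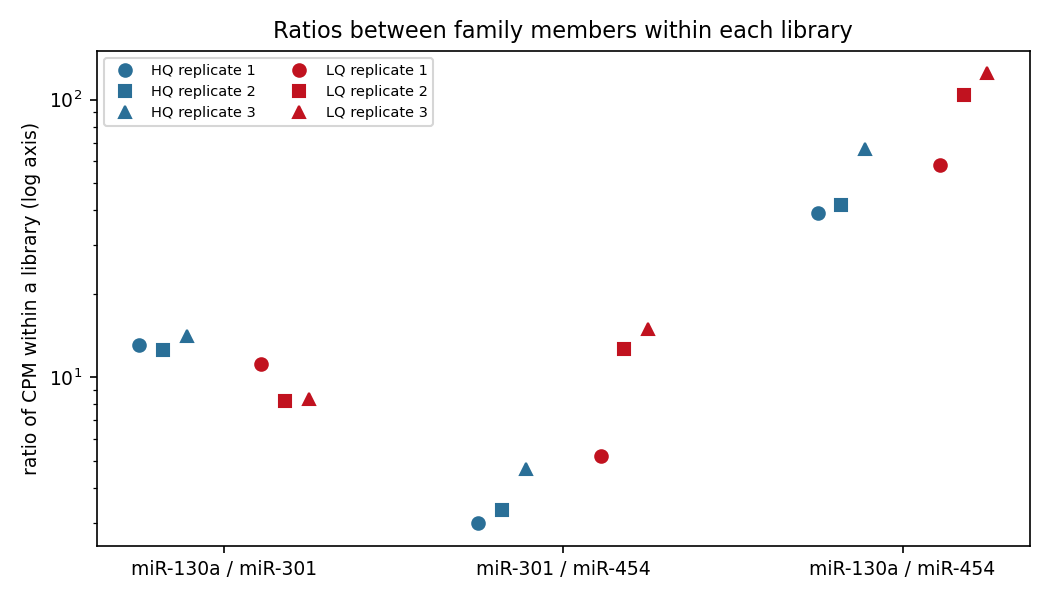
Ratio of CPM between pairs of family members within each library, on a log axis, for 3 HQ (blue) and 3 LQ (red) libraries. The ratio of miR-130a to miR-301 runs from 12.6 to 14.1 in HQ and from 8.23 to 11.2 in LQ, and that of miR-301 to miR-454 from 2.98 to 4.69 in HQ and from 5.21 to 14.9 in LQ.

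MiR-130b-3p, with the same seed as miR-130a, was near the level of miR-301 in HQ, where miR-301 was 0.946 to 1.18 times its CPM, and lower than miR-301 in LQ, where that ratio was 1.54 to 2.15. It stood at 244, 302 and 348 CPM over replicates 1 to 3 of HQ, and at 340, 378 and 466 CPM over those of LQ. The groups overlapped at HQ replicate 3 and LQ replicate 1. The means were 298 ± 52.4 CPM (SD, n = 3) and 395 ± 64.5 CPM (SD, n = 3), and the log2 difference of -0.41 (SE 0.24, 95% interval -0.92 to 0.10) had an adjusted p of 0.219 by limma. The opposite arm, miR-130b-5p, was at 0 in all 6 libraries, so that the 3p arm was at least 92.3-fold (LQ replicate 1) to at least 456-fold (LQ replicate 3) above a floor of 3 reads per library.

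Seeds that overlap that of the family by a shift were looked at next, in the miR-148 and miR-152 group, known for repressing DNA methyltransferases in human cells, and in miR-19, from the miR-17-92 cluster. The sequences are shown because each holds the bases GUGCA within its seed (capitals), as miR-130a does.
ssc-miR-148a-3p: uCAGUGCAcuacagaacuuugu
ssc-miR-148b-3p: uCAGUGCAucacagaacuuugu
ssc-miR-152: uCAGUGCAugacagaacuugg
ssc-miR-19a: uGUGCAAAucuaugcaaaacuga
ssc-miR-19b: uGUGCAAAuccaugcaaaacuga
GUGCA lay within the seed of 8 of 355 matched miRNAs (2.25%), namely these 5, miR-130a, miR-130b-3p and miR-143-5p, the last of which was found by the search. All 8 had a negative log2 difference and 7 passed as higher in LQ, where 14.9% of all miRNAs did. Apart from miR-143-5p, the 8 came from the members and lists chosen with earlier results of these data known, so that the count tests nothing about the seed. The unmatched members miR-301 and miR-454, which belong to the same seed family, stand outside this count, and miR-454 had a positive difference (0.33) that did not pass. A shared stretch of letters is a description and not evidence of a shared target or source.

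All 3 members of the miR-148 and miR-152 group passed, with log2 differences of -0.92 for miR-148a-3p, -0.98 for miR-148b-3p and -0.64 for miR-152 (adjusted p 0.00325, 0.00325 and 0.0115 by limma). Both miR-19 miRNAs, which come from separate hairpins, passed, with -1.16 for miR-19a (adjusted p 0.00365) and -0.90 for miR-19b (adjusted p 0.00628). GC content moved with this result, as the 8 miRNAs had a median GC of 40.9% against 47.8% for the 246 tested miRNAs with a sequence. MiR-143-5p was the exception among the 8, with a GC of 61.9%. After a correction for GC content all 8 differences were still negative and 4 still passed, with that of miR-143-5p going from -1.36 to -1.87. In that fit 10.6% of the 246 miRNAs passed as higher in LQ, and miR-130a, miR-19a and miR-19b no longer passed. The GC content of miR-301 and miR-454 was not used here.

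MiRNAs whose log2 levels followed each member most closely were named by Pearson's r over the 6 libraries, among 256 miRNAs, as a description in which the group difference and the scaling are shared by all points. For miR-130a they were miR-424-5p (0.981), miR-542-3p (0.959), miR-340 (0.959) and miR-499-5p (0.958), with miR-301 in rank 11 (0.934). For miR-301 they were miR-19a (0.995), miR-29b (0.990), miR-194a-5p (0.990) and miR-542-3p (0.985). MiR-19a went from 635 CPM in HQ to 1415 CPM in LQ, a ratio like that of miR-301.

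MiR-454 followed other miRNAs than miR-130a and miR-301 did. Its nearest were let-7f-5p (0.969), let-7c (0.962), miR-26a (0.953) and miR-365-3p (0.950), and its r was -0.58 with miR-130a and -0.76 with miR-301. Each of these 4 had a lower mean in LQ than in HQ, as miR-454 had.

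Some markers of other cells that the fluid could carry also differed between the groups, and their counts are read against the 14.9% of all miRNAs that passed as higher in LQ and the 11.7% that passed as higher in HQ. The endothelial pair miR-126-3p and miR-126-5p summed to 874 to 1062 CPM in HQ and 1619 to 2149 CPM in LQ, and miR-126-5p passed as higher in LQ (log2 difference -1.13) while miR-126-3p did not pass (-0.18, adjusted p 0.640 by limma). The 4 muscle miRNAs summed to 56.5 to 64.3 CPM in HQ and 147 to 230 CPM in LQ, and 3 passed as higher in LQ. Of 5 leukocyte and platelet miRNAs 1 passed as higher in LQ, miR-142-5p (32.0 CPM in HQ, 87.0 CPM in LQ). The other 4 did not pass and were split in direction. MiR-155-5p (log2 difference 0.52) and miR-150 (0.09) were on the HQ side, and miR-223 (-0.39) and miR-142-3p (-0.15) on the LQ side. The 5 summed to 193 to 213 CPM in HQ and 217 to 318 CPM in LQ.

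The erythrocyte miRNAs were split, as miR-451 was higher in LQ (log2 difference -1.18, adjusted p 0.0403 by limma) and miR-486 in HQ (0.91, adjusted p 0.0158), while miR-144 was too low to be tested. Their sums, 99.3 to 152.1 CPM in HQ and 78.0 to 87.3 CPM in LQ, were mostly miR-486 (means of 126 and 65.5 CPM), with miR-451 at 6.22 and 15.1 CPM. Of 4 neural miRNAs tested 2 passed as higher in LQ, miR-9 (5.12 CPM in HQ, 64.7 CPM in LQ) and miR-9-1 (1.72 and 94.2 CPM). The summed level of the neural list, 25460 to 37681 CPM in HQ and 20286 to 25516 CPM in LQ, was nearly all miR-128 (31129 and 22444 CPM), which did not pass. The gonadal strands miR-202-5p and miR-202-3p summed to 40260 to 89364 CPM in HQ and 61414 to 76637 CPM in LQ, and miR-202-3p passed as higher in HQ while miR-202-5p did not pass (log2 difference -0.07, adjusted p 0.877 by limma). None of these markers was at 0 in all libraries. Their part in the levels of miR-130a and miR-301 was not tested.

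**Figure D4:**
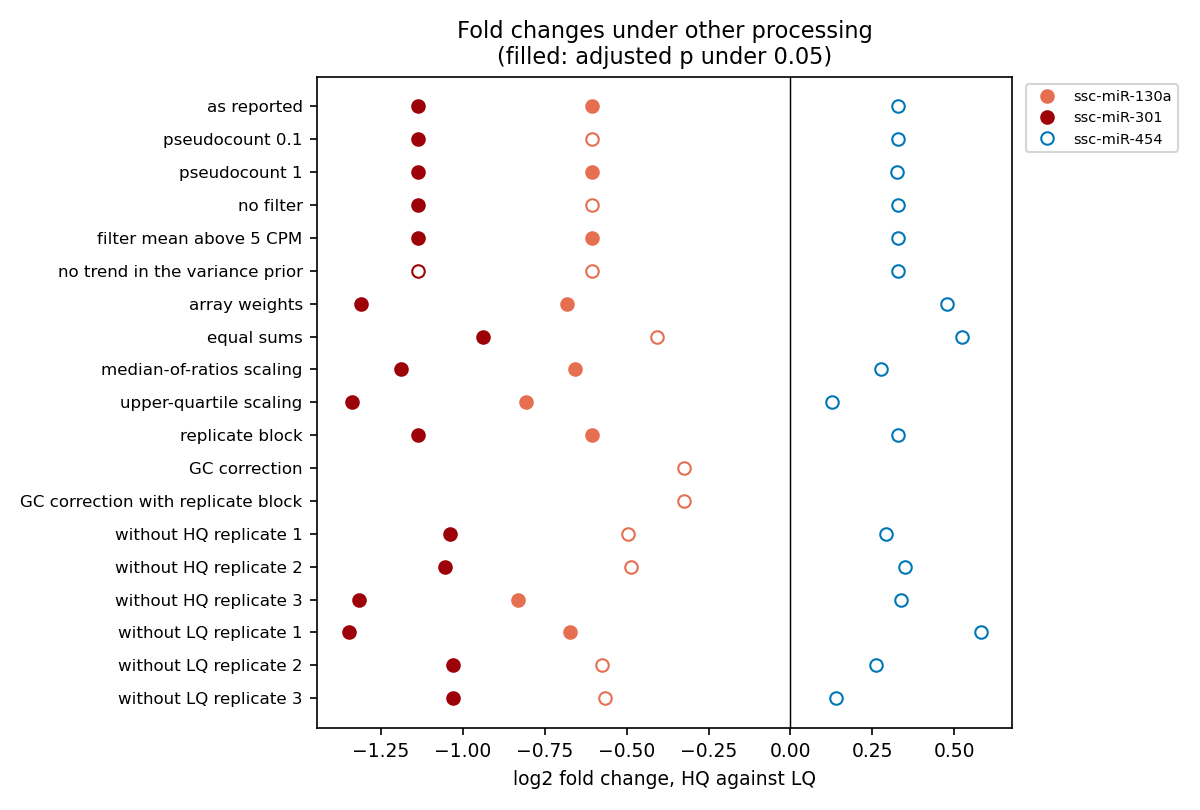
Log2 fold change (HQ against LQ) of the 3 family members as reported and in 18 other fits, with filled points where the adjusted p was under 0.05 (GC correction could be computed for miR-130a only). MiR-301 stays between -1.35 and -0.94 and is open without a variance trend only, miR-130a is open in 10 of the other fits, and miR-454 is open throughout.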

How the data were processed

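Small-RNA libraries of 6 s-EV samples (3 HQ, 3 LQ) were made with a QIAseq miRNA kit. The authors trimmed reads, mapped them to Sscrofa11.1, annotated them against miRBase release 22 in CLC Genomics Workbench version 21, and deposited a signal, TMM-adjusted CPM per miRNA. Whether molecular identifiers were counted is not stated.

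MiRNAs averaging over 1 CPM in HQ or LQ (309) were kept, and log2(CPM + 0.5) was compared by limma 3.58.1 (mean trend in the variance prior, no replicate block), with Benjamini-Hochberg adjustment over all 309. Ratios between members were tested by exact permutation. The members and lists were chosen with earlier results of these data known. The text names the members, miR-130b-3p, the fixed lists and, for each member, the 4 miRNAs nearest in pattern. Sequences were read from RefSeq by name (355 of 453 matched, 8 of them without the arm). Alternatives covered pseudocount, filter, variance prior, weights, scaling, GC content, replicate block and leaving out each library.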

Additional observations from a re-analysis of the deposited data

How the results depend on the processing

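The differences of the 3 members and of miR-130b-3p, and the 3 ratios between members, kept their sign in every alternative run for them. MiR-130a lost its call with a pseudocount of 0.1 (-0.61, adjusted p 0.0541 by limma), without a filter (-0.61, adjusted p 0.0587), without a variance trend (-0.61, adjusted p 0.150), with equal sums (-0.41), and with GC correction alone or with the replicate block (both -0.32, adjusted p 0.284 and 0.299). Leaving out each library gave -0.83 to -0.49 for miR-130a and -1.35 to -1.03 for miR-301. Among the fits run for it, miR-301 lost its call without a variance trend only (-1.14, adjusted p 0.0507 by limma). The GC correction could not be computed for miR-301 or miR-454. MiR-454 (0.13 to 0.58) and miR-130b-3p did not pass in any fit. The log2 ratio of miR-454 to miR-301 stayed between 1.17 and 1.93.

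The count of 82 miRNAs passing (46 higher in LQ, 36 in HQ) was 29 without a variance trend, 52 with GC correction (246 tested), and 29 to 109 on leaving out each library, with 29 without HQ replicate 2, 46 without LQ replicate 2 and 48 without HQ replicate 1. Scaling moved the split, to 27 in LQ and 60 in HQ with equal sums (median of all miRNAs 0.25 instead of 0.08) and to 58 and 17 with upper-quartile scaling (median -0.11).

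Whether same-numbered replicates were collected or processed together is not known. The deviations of same-numbered libraries had correlations of -0.005, -0.013 and -0.036, and those of differently numbered libraries -0.018 to 0.033. Such correlations showed no pairing but cannot tell how the pools were made. With the replicate block 97 miRNAs passed, miR-130a (-0.61, adjusted p 0.0177) and miR-301 (-1.14, adjusted p 0.000132) among them, and for the 3 ratios the smallest p that pairs allow is 0.25.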
